A study of Homo sapiens with 6 samples.

Results

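The 10 genes described here were grouped as immediate early and feedback genes of the kinase ERK, although JUND is not induced like its relatives. They are the transcription factor genes EGR1, FOS, FOSL2, JUN, JUNB and JUND and the nuclear regulator gene IER2. The others are the phosphatase genes DUSP1 and DUSP6 and the inhibitor gene SPRY2. The 10 genes were read from all probes that the array's platform annotation assigns to these symbols. This gave 10 probes, 1 per gene, of 22184 on the array, where 16578 genes are named. The cells were SH-SY5Y, an established line from a human neuroblastoma, a tumour of the sympathoadrenal lineage, cultured in medium with serum. The 6 arrays fell into 3 with RNA from cells treated with the vehicle dimethyl sulfoxide (DMSO) and 3 with RNA from cells treated with atrazine, a triazine herbicide. The labels state neither dose nor exposure time, nor whether the numbered replicates came from separate cultures, so the p-values reflect the spread among these 6 samples and that spread could be technical.

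When growth factors, depolarisation or serum activate the RAS, RAF, MEK and ERK cascade, ERK phosphorylates transcription factors such as ELK1 that sit with serum response factor on the promoters of immediate early genes, and these genes are transcribed within minutes without new protein synthesis. Their products, among them EGR1 and the FOS and JUN proteins that pair into the transcription factor AP-1, drive the next layer of genes. Others switch the cascade off again: DUSP6 dephosphorylates ERK, DUSP1 dephosphorylates ERK, JNK and p38, and SPRY2 acts further up, between the receptor and RAF. The messages of immediate early genes are short-lived, so their level follows recent signalling.

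The promoters of these genes carry the binding letters through which such signals are read, and 4 of them are shown here because they hold the clearest matches and belong to probes that differed in both directions. Sequences are from RefSeq (build GRCh38.p14), 5′ to 3′ on the strand of the gene. For EGR1 (chr5:138465229-138465478, plus strand), DUSP1 (chr5:172771196-172771445, minus strand) and JUND (chr19:18281623-18281872, minus strand) they are the 250 bases before the annotated start. For FOSL2 they are 30 bases across the start (chr2:28392851-28392880, plus strand). Capitals mark the CArG box, to which serum response factor binds, and every TGACG (or its reverse complement CGTCA), the core of the cAMP response element, except in FOSL2, where they mark the AP-1 letters TGANTCA.
EGR1: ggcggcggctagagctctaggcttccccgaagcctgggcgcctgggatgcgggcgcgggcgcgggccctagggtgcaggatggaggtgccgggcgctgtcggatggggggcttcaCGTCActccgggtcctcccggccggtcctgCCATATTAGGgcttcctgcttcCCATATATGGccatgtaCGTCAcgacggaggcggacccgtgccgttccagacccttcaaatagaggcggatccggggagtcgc
DUSP1: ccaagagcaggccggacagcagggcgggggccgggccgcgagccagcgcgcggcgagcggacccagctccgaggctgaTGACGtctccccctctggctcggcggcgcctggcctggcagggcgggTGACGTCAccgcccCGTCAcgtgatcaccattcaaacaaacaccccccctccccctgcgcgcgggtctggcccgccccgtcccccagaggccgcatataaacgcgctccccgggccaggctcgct
JUND: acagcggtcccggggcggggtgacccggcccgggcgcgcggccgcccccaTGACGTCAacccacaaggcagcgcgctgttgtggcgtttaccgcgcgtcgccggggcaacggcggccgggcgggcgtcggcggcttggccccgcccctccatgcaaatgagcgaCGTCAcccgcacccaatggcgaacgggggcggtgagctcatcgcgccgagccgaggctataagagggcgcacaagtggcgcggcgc
FOSL2: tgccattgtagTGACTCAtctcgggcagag

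All 10 genes had a RefSeq window of 250 bases before and 50 after the start, and SPRY2 had 3. EGR1 was the only 1 of the 10 genes with a CArG box in its window, and it held 2, which began 105 and 83 bases before the start. Sites more than 250 bases before the start were not searched, so FOS or another gene may hold a box further upstream. A CArG box occurred in 1.29% of 35116 promoter windows. The full cAMP response element, TGACGTCA, was found in DUSP1 and JUND and in 1.85% of all windows, and each full element contains the core TGACG on both strands. After quantile normalization the DUSP1 probe was lower and the JUND probe higher in atrazine, as described below. Any part of this element in their levels was not tested. The core was found for every member except DUSP6, though in only 1 of the 3 windows of SPRY2 (24.6% of all windows), the AP-1 letters were in FOSL2 only (7.71%), the ETS core CCGGAA was in IER2 and in 1 window of SPRY2 (17.2%), and the EGR letters GCGTGGGCG were in none (0.795%). Both strands were searched. These are matches of letters in a short window and describe no binding.

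The arrays of the groups differed as a whole. Mean intensity was 532.2 to 939.1 units on the DMSO arrays and 235.1 to 311.3 on the atrazine arrays, and 58.9% to 59.8% of probes against 43.6% to 52.0% were above background, meaning a detection p-value under 0.05. Atrazine replicate 2 correlated with the other atrazine arrays at r = 0.968 and 0.963, which correlated with each other at 0.994. Values below are log2 intensities after background correction and quantile normalization, which gives every array the same distribution. Of 12969 probes tested across the array with limma, 67.3% passed an adjusted p of 0.05, with 27.7% higher and 39.6% lower in atrazine, and the groups did not overlap in 75.0%. The median log2 difference over all tested probes was -0.18. It was 0.04 when arrays were scaled to housekeeping genes (37.5% higher, 31.8% lower), 0.20 when scaled to the median of probes above background on all 6 arrays (44.1% and 25.4%), -0.90 when scaled to the median of every probe (15.3% and 68.5%) and -1.61 with no scaling (2.61% and 77.2%). The chip and scan of each array are not given in the sources used here, so no such batch could be examined.

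Of the 10 probes 9 passed the filter of being above background on all 3 arrays of a group, and all 9 differed between the groups: EGR1, FOS, JUN, DUSP1, DUSP6 and SPRY2 were lower and FOSL2, JUND and IER2 higher in atrazine. EGR1, FOS and JUN passed the filter only through the DMSO arrays, where they were high, so for them the difference in part restates the filter. IER2 also passed only through the DMSO arrays. The groups did not overlap for any of the 9. With 67.3% of all tested probes called and 75.0% not overlapping, 9 of 9 is a small number to set against this background, and the sizes and directions below carry more than the count. The median of the 9 log2 differences was -0.52, against -0.18 over all tested probes. This median is the value of FOS, whose sign changed with the scaling, as described below. The JUNB probe was above background on no array.

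**Figure D1:**
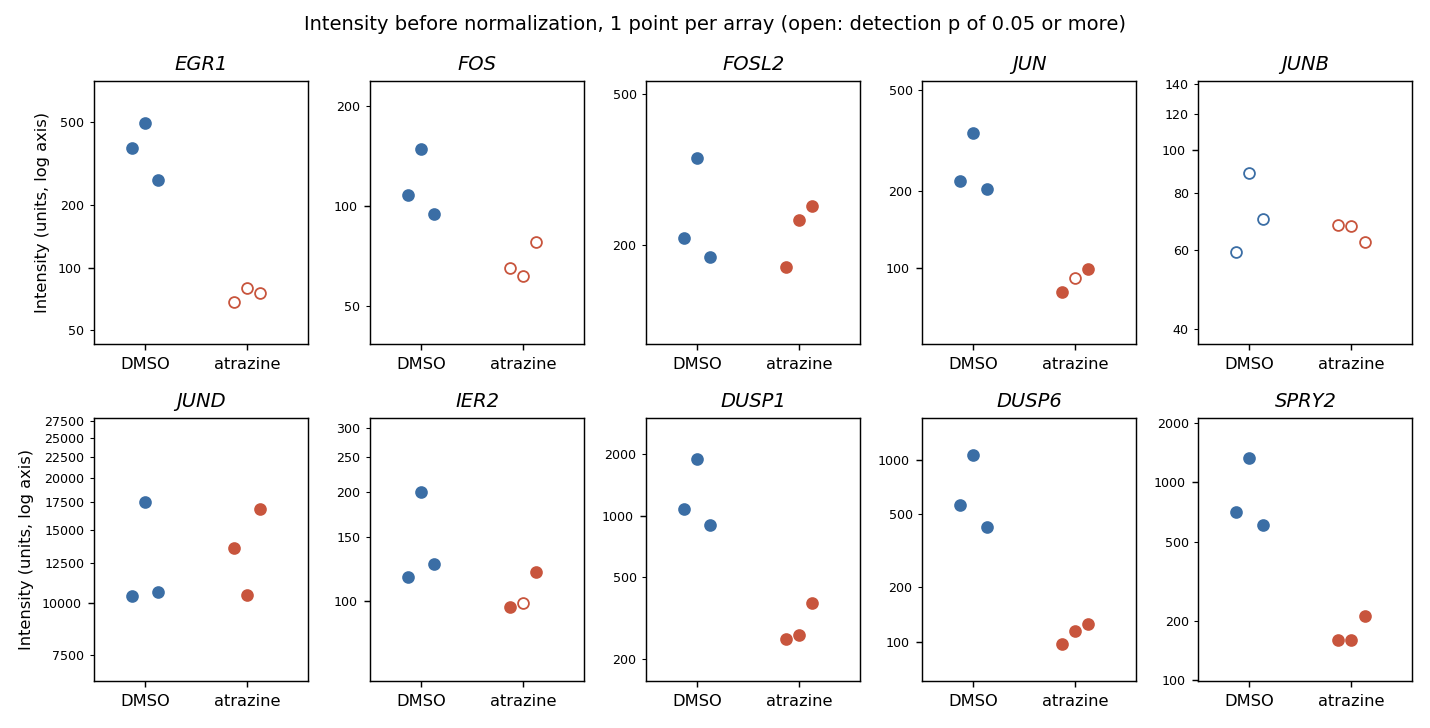
Deposited intensity of each of the 10 probes on each array (vertical log axis in intensity units, its range differing between panels), with DMSO arrays in blue and atrazine arrays in red, and open circles where the probe was not above background. EGR1, FOS, JUN, DUSP1, DUSP6 and SPRY2 were lower on every atrazine array before any normalization, whereas FOSL2, JUNB, JUND and IER2 overlapped between the groups.

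EGR1, a zinc finger transcription factor and the classic readout of ERK activity, went from clearly above background to not above it. Its probe (ILMN_1762899) read 7.69, 7.31 and 7.32 on the DMSO arrays and 5.21, 5.46 and 5.03 on the atrazine arrays (normalized log2 intensity). All 3 DMSO values lay far above background, with a detection p-value of 0, and none of the atrazine values did, with detection p-values of 0.153, 0.113 and 0.249. The group means were 7.44 ± 0.22 and 5.23 ± 0.21 (SD, n = 3). Because the atrazine side is only a bound, EGR1 was at least 2.91-fold lower after quantile normalization (limma adjusted p = 3.02e-05). The direction and the call held in all 18 alternative settings that gave EGR1 a value. Settings that reuse the same group means could not change the direction. Log2 differences over the 18 ranged from -3.13 to -1.32. Some of these are smaller than the stated bound: -1.32 with the median of probes above background on all arrays and with no background correction, -1.47 with the authors' processed values and -1.48 with housekeeping scaling. Relative to the median of all probes these were -1.52, -1.19, -1.33 and -1.52.

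Among the AP-1 genes, FOS and JUN were lower and FOSL2 and JUND higher. FOS encodes the prototype immediate early partner of JUN. Its probe (ILMN_1669523) was just above background in DMSO, at 5.68, 5.52 and 5.43, and not above it in atrazine, at 5.07, 4.91 and 5.09. The log2 difference of -0.52 (SE 0.11, limma adjusted p = 0.00454) lies so close to background that no fold can be given. Its sign moved with the scaling: it was 0.90 with housekeeping scaling and 1.06 with the median of probes above background on all arrays, both past the threshold, and -0.04, not past it (adjusted p = 0.80), with the median of every probe. FOS was above background on no atrazine array, so the rises under these scalings rest on background signal. The direction of FOS is therefore not settled by these arrays.

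JUN, the AP-1 subunit that JNK phosphorylates, lay well above background in DMSO and at its edge in atrazine. Its detection p-values in atrazine were 0.0438, 0.0636 and 0.0424. Its probe (ILMN_1669768) read 6.89, 6.78 and 6.91 in DMSO and 5.79, 5.94 and 5.77 in atrazine, where it was above background on 2 of 3 arrays. The fall was 1.03 on the log2 scale, or 2.04-fold (SE 0.10, limma adjusted p = 0.000119). JUN was lower in all 18 alternatives with a value, some of which reuse the same group means and so could not change the direction. Scaling to the median of probes above background on all arrays left -0.30, which did not pass (limma adjusted p = 0.0832). Housekeeping scaling gave -0.46.

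FOSL2 encodes Fra-2, a FOS family protein that lacks the strong activation domain of FOS and accumulates later after stimulation. Its probe (ILMN_1725175) read 6.81, 6.77 and 6.75 in DMSO and 8.15, 8.52 and 8.24 in atrazine, and was above background on all 6 arrays. It rose 2.87-fold (log2 difference 1.52, SE 0.12, limma adjusted p = 4.78e-05). Before normalization the groups overlapped, at 186.4 to 338.9 units in DMSO and 175.5 to 253.3 in atrazine, on arrays whose mean signal was lower in atrazine. Without any scaling its log2 difference was accordingly -0.08, while under housekeeping scaling it was 1.57 and with the median of every probe 0.63.

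JUND, the JUN family member that is expressed in unstimulated cells and is not induced like its relatives, was bright on every array. Its probe (ILMN_1810214) read 12.82, 13.04 and 13.07 in DMSO and 14.10, 13.85 and 14.20 in atrazine. It rose 2.11-fold (log2 difference 1.08, SE 0.13, limma adjusted p = 0.0003). The intensities before normalization overlapped, at 10382 to 17515 units in DMSO and 10451 to 16871 in atrazine. The rise is thus one relative to the rest of each array: the probe stood at the 99.4th to 99.5th percentile of all probes on the DMSO arrays and at the 99.8th to 99.9th on the atrazine arrays. It was 1.75 with housekeeping scaling and 0.10, not past the threshold (adjusted p = 0.788), with no scaling.

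JUNB, which encodes an inducible JUN protein that can oppose JUN, could not be compared. Its probe (ILMN_1777184) had detection p-values from 0.397 to 0.661 in DMSO and from 0.161 to 0.607 in atrazine. Its normalized values, 4.78 to 4.88 and 4.81 to 5.19, overlapped between the groups. A level of JUNB below what this probe can detect remains possible on any of the arrays.

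IER2 encodes a short-lived nuclear protein induced with FOS and EGR1. The probe (ILMN_1700584) read 5.84, 5.99 and 6.06 in DMSO and 6.49, 6.24 and 6.42 in atrazine, a rise of 1.34-fold (log2 difference 0.42, SE 0.11, limma adjusted p = 0.0127). It was low throughout, and above background on 3 of 3 DMSO and 2 of 3 atrazine arrays. This small rise was 1.07 with housekeeping scaling, 0.14 and not past the threshold with the median of every probe (adjusted p = 0.362), and -0.58 with no scaling (adjusted p = 0.124).

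**Figure D2:**
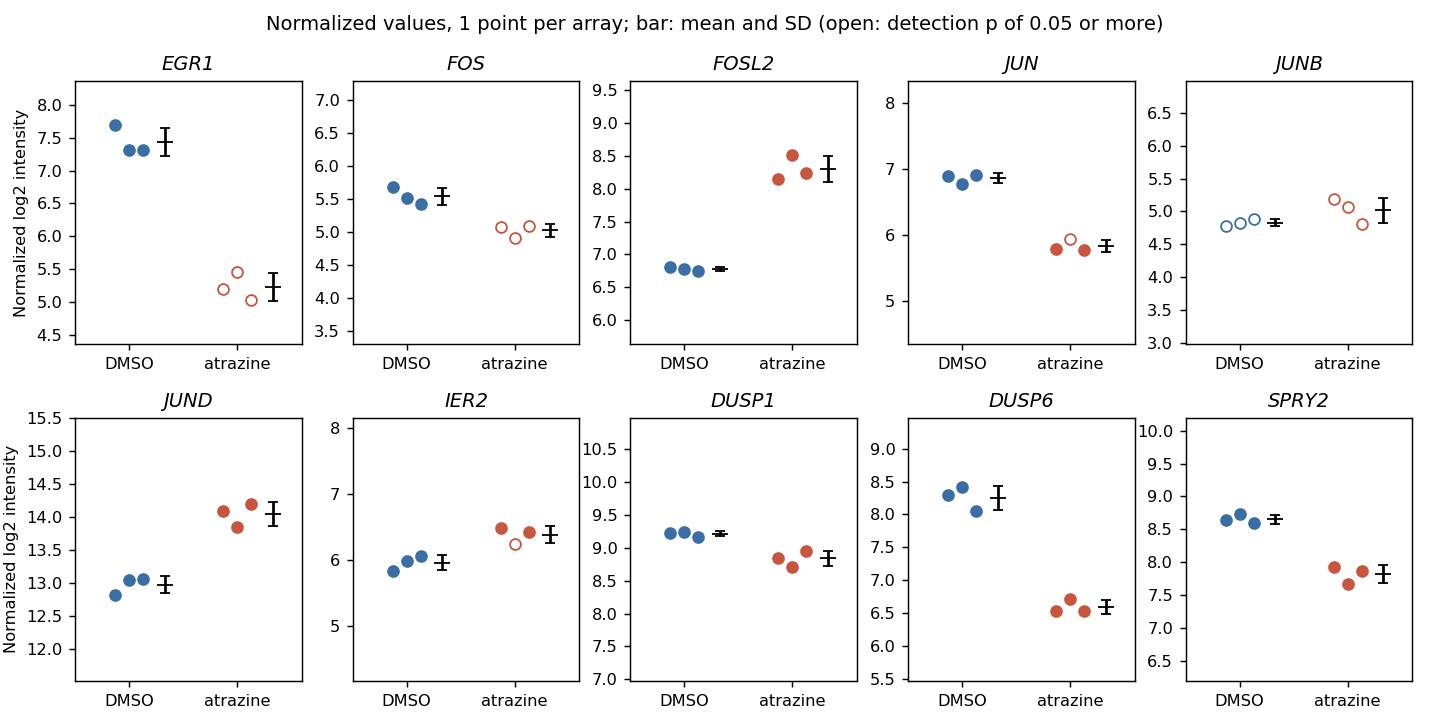
Normalized log2 intensity of the 10 probes on each array (points; open where not above background) with the mean and SD of each group of 3 arrays (bars); every panel spans the same number of log2 units. The groups stand apart for all probes but JUNB, downwards for EGR1, FOS, JUN, DUSP1, DUSP6 and SPRY2 and upwards for FOSL2, JUND and IER2.

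The feedback genes were all lower in atrazine, by different amounts. DUSP6 encodes the cytoplasmic phosphatase specific for ERK, and its transcription follows ERK activity. Its probe (ILMN_1677466) read 8.29, 8.41 and 8.06 in DMSO and 6.53, 6.71 and 6.53 in atrazine, above background on all 6 arrays. In atrazine it lay close to background, with detection p-values of 0.0198, 0.0240 and 0.0169. DUSP6 fell 3.17-fold, a log2 difference of -1.66 (SE 0.12, limma adjusted p = 3.80e-05). On the deposited scale it went from 426.9 to 1060 units in DMSO to 97.7 to 124.9 in atrazine. The fall passed the threshold in all 18 alternatives that gave a value, between -3.21 and -1.19.

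SPRY2, the Sprouty protein that restrains receptor signalling to RAF, followed. Its probe (ILMN_1760820) read 8.64, 8.73 and 8.59 in DMSO and 7.92, 7.66 and 7.87 in atrazine. It fell 1.79-fold (log2 difference -0.84, SE 0.11, limma adjusted p = 0.000439), and the fall passed the threshold in all 19 alternatives, between -2.63 and -0.67.

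DUSP1 encodes the nuclear phosphatase of ERK, JNK and p38. Its probe (ILMN_1781285) read 9.23, 9.24 and 9.17 in DMSO and 8.84, 8.72 and 8.96 in atrazine, a fall of 1.30-fold (log2 difference -0.38, SE 0.10, limma adjusted p = 0.0133). Relative to the median of all probes the difference was -0.20 after quantile normalization and -0.68 after each of the scalings by a constant. The 95% confidence intervals of DUSP6 (-1.96 to -1.37) and DUSP1 (-0.61 to -0.14) did not overlap.

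**Figure D3:**
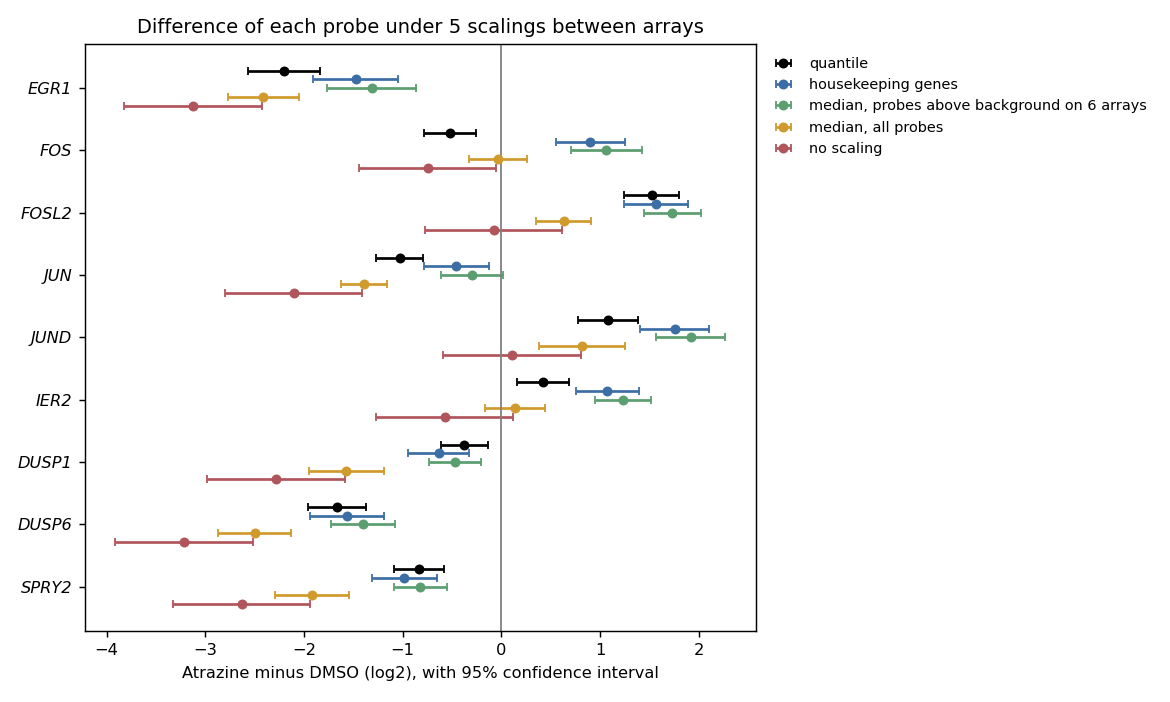
Log2 difference, atrazine minus DMSO, of the 9 tested probes with its 95% confidence interval (horizontal axis) under quantile normalization and 4 other treatments of the arrays (colours). EGR1, JUN, DUSP1, DUSP6 and SPRY2 stayed below 0 under all 5 and JUND above it, whereas FOS, FOSL2 and IER2 changed sign under at least 1.

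Leaving out any single array kept all 9 calls and all 9 directions. Without atrazine replicate 2, the array that stood apart, EGR1 was -2.52, DUSP6 -1.80, SPRY2 -0.77, DUSP1 -0.32, JUN -1.18, FOSL2 1.46 and JUND 1.09. Every member was read from 1 probe, so none could be compared with a second probe of the same gene. In the pathway lists below, 14 genes had more than 1 tested probe and 12 of these had at least 2 calls, which went in 1 direction in 11 and in opposite directions in DUSP10. With the median of probes above background on all arrays it was 8 of 11, with NTRK2 and RPS6KA2 split as well, and with housekeeping scaling 8 of 10. In NTRK2 and RPS6KA2 the probe that turned upwards was above background on no atrazine array, so the split rests on background signal.

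The probe pattern closest to that of DUSP6, the member above background on every array with the largest difference, was that of FAM13A, followed by MCMBP and RAD51D. Over the 6 arrays their centred log2 values lay at a root mean square distance of 0.043, 0.060 and 0.089 from those of DUSP6. Their own log2 differences were -1.65, -1.59 and -1.57. MCMBP was above background on 3 of 6 arrays and the other two on 5, so the likeness rests partly on values at background.

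Other immediate early genes went up more often than down. Of 39 probes for 31 genes on the array 17 probes (13 genes) were tested, of which 11 were higher, 1 lower and 5 not past the threshold, with a median log2 difference of 0.73 against -0.18 over all probes. Over all tested probes 67.3% were called, 27.7% higher and 39.6% lower. CSRNP1, a nuclear protein first described as induced by axin, rose by 4.77 (SE 0.19) from a level that was above background on 2 of 3 DMSO arrays. Its probe passed the filter only through the atrazine arrays, where it was high, so the rise in part restates the filter. KLF10, a zinc finger repressor induced by TGF-beta, rose by 2.24 on 1 probe (ILMN_1659122) and by 0.68 on another, while the remaining tested probe gave -0.15 without passing and turned to 1.23 (median of probes above background on all arrays) and 1.07 (housekeeping scaling), both past the threshold. That remaining probe was above background on every DMSO array and on no atrazine array, so its values in atrazine are background signal. IER5, a relative of IER2, rose by 1.48 (SE 0.11). MYC was the 1 that fell, from 11.50 ± 0.19 to 9.81 ± 0.43, and is named for that after its value was seen. The balance was 13 higher and 2 lower with housekeeping scaling and 15 and 1 with the median of probes above background on all arrays, but 6 and 5 with the median of every probe and 1 and 6 with no scaling. Over all probes the shares higher and lower were 37.5% and 31.8%, 44.1% and 25.4%, 15.3% and 68.5%, and 2.61% and 77.2%, in that order. The counts of the lists below shift against these same shares.

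The other MAPK phosphatases, unlike DUSP1 and DUSP6, were higher more often than lower. Of 8 tested probes (6 genes) 5 were higher, 1 lower and 2 not past the threshold, with a median of 0.34. Over all tested probes 67.3% were called, 27.7% higher and 39.6% lower, so the number called in this short list is unremarkable. DUSP7, a cytoplasmic phosphatase of ERK like DUSP6, had a probe above background on every atrazine array and no DMSO array and was at least 3.16-fold higher. It passed the filter only through the atrazine arrays, where it was high, so the rise in part restates the filter. DUSP4, a nuclear phosphatase that ERK induces, rose by 0.64 on 1 probe (ILMN_1808391) and gave 0.33 on its brighter one, which did not pass (adjusted p = 0.101). DUSP10, which acts on JNK and p38, fell by 1.09 on 1 probe and rose by 0.32 on the other. The probe that fell was above background on 2 atrazine arrays and passed the filter only through the DMSO arrays. Counts were 4 higher and 1 lower with housekeeping scaling and 5 and 1 with the median of probes above background on all arrays, and turned to 1 and 4 with the median of every probe and 1 and 7 with no scaling.

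Further feedback and output genes of ERK were lower more often than higher, as all probes were after quantile normalization (39.6% lower and 27.7% higher). The list also holds RASSF1 and PEA15, described below by their link to RAS and ERK and not as messages that follow ERK. Of 13 tested probes (11 genes) 7 were lower, 4 higher and 2 not past the threshold, with a median of -0.29. CCND1, the cyclin of G1 entry, fell from 12.47 ± 0.12 to 10.84 ± 0.11. SPRY1, a Sprouty relative of SPRY2, was at least 1.39-fold lower on 1 probe (ILMN_1651610) after quantile normalization. This probe passed the filter only through the DMSO arrays, where it was high, so the fall in part restates the filter. That probe changed by -0.17 (adjusted p = 0.264) with the median of probes above background on all arrays and by -0.33 (adjusted p = 0.0699) with housekeeping scaling, so the call was lost under both. Its other tested probe gave -1.01 (SE 0.12), and -0.61 and -0.77 under the same scalings, both past the threshold. The 4 rises were both probes of RASSF1, a RAS association domain protein (2.67 and 0.71), PEA15, which holds ERK in the cytoplasm (0.97), and the receptor EPHA2 (0.66). The last 2 were named after their values were seen. Falls outnumbered rises under all 4 other scalings, with 7 lower and 4 higher for housekeeping genes, 6 and 4 for the median of probes above background on all arrays, 10 and 1 for the median of every probe and 12 and 1 with none. Over all probes, rises outnumbered falls under the first 2 of these scalings and falls outnumbered rises under the last 2.

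Within the cascade itself, 10 of 30 tested probes (21 genes) were higher, 12 lower and 8 not past the threshold, with a median of -0.15. Over all tested probes 27.7% were higher and 39.6% lower. All 30 cascade probes were above background on all DMSO arrays and 24 on all atrazine arrays. The rest passed the filter only through DMSO, so the falls can in part restate the filter. EGFR, a receptor that feeds RAS, rose by 2.73 on 1 probe (ILMN_1798975) and by 1.45 on the other. SOS1, the exchange factor that loads RAS with GTP, rose by 1.91 (SE 0.13), and RPS6KA2, an ERK-activated kinase, changed by -1.36 on its brighter probe (ILMN_1702501). The other tested probe of RPS6KA2 gave -0.38, but 1.04 with the median of probes above background on all arrays and 0.88 with housekeeping scaling, all past the threshold. That probe was above background on every DMSO array and on no atrazine array, so these rises rest on background signal. Counts were 12 higher and 10 lower with housekeeping scaling, 16 and 9 with the median of probes above background on all arrays, 5 and 21 with the median of every probe and 1 and 23 with no scaling.

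Of 11 tested probes for transcription factors that act on immediate early promoters, each of a different gene, 6 were lower, 1 higher and 4 not past the threshold. Their median was -0.39, against -0.18 over all probes, of which 27.7% were higher and 39.6% lower. All 11 were above background on all DMSO arrays and 7 on all atrazine arrays. The rest passed the filter only through DMSO, so the falls can in part restate the filter. ATF2, which binds cAMP response elements and pairs with JUN, was the 1 that rose, by 1.17 (SE 0.13). MEF2D changed by -0.82 and ELK1, the ERK target on CArG box promoters, by -0.62 (SE 0.09). SRF, which binds the CArG box and was singled out after its value was seen, gave -0.22 (SE 0.11, adjusted p = 0.127). With the median of probes above background on all arrays the list split evenly, 4 higher and 4 lower, and it was 3 and 5 with housekeeping scaling, 0 and 8 with the median of every probe and 0 and 9 with no scaling. Of the JNK pathway kinases only MAP2K4 and MAPK9 were tested, and they changed by -0.37 (adjusted p = 0.0147) and -0.24 (adjusted p = 0.0900, not past the threshold).

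**Figure D4:**
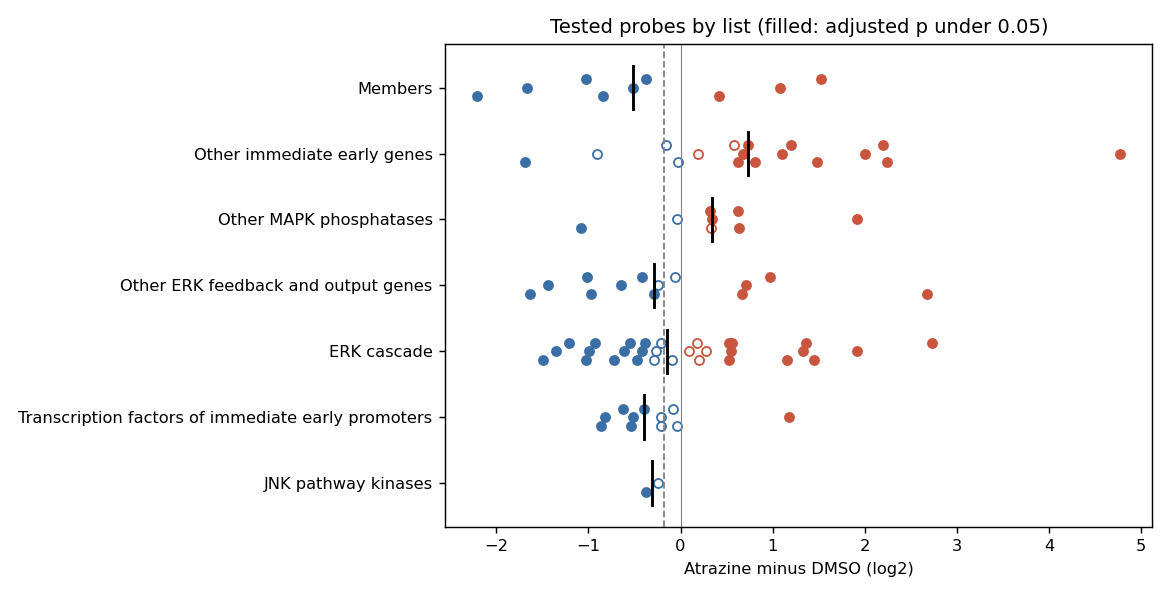
Log2 difference, atrazine minus DMSO, of every tested probe (points; filled where the adjusted p was under 0.05) in the 9 members and in each pathway list, with the median of each row (black bar) and the median of all tested probes (dashed line, -0.18). The other immediate early genes have a median of 0.73 and the members one of -0.52, which is the value of FOS.

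The identity of the cells was read from marker genes. Of 9 sympathoadrenal marker probes 8 were above background on all 6 arrays, DBH and the transcription factor genes PHOX2A, GATA2, GATA3 and ISL1 among them, and HAND2 was above it on none. Of these 8, 5 were lower, 1 higher and 2 not past the threshold after quantile normalization, with a median log2 difference of -0.49. Over all tested probes 27.7% were higher and 39.6% lower. The summed normalized level of the 9 was 23268 to 25274 in DMSO and 13249 to 13476 in atrazine. In such a sum of unlogged values the brightest probes weigh most. Of 13 probes for mesenchymal-type neuroblastoma cells 6 were above background on all DMSO arrays and 4 on all atrazine arrays. Their sum was 2174 to 2254 against 10419 to 12507, a sum held mostly by S100A6 (9.46 and 12.92 on the log2 scale) and VIM (9.99 and 11.59). In the same list SNAI2 (-1.21) and COL1A2 (-0.70) were lower after quantile normalization but gave 0.03 and 0.74 with the median of probes above background on all arrays, and ANXA1, FN1 and YAP1 were above background on no array. Of 10 blood and immune probes 0 were above background on all DMSO arrays and 2, 1 each of AIF1 and PTPRC, on all atrazine arrays (sum 318.2 to 331.2 against 619.0 to 668.3), with CD14, CD3E and HBB above it on none. Of 10 epithelial and liver probes 4 and 1 were above background on all arrays of the group (sum 417.0 to 435.8 against 494.8 to 520.4), with ALB and APOA1 on none. All these sums also count probes not above background. The low sums of the blood, immune, epithelial and liver lists are therefore in large part background signal. These marker levels moved with the groups, as did the array signal, and their part in the differences of the 10 genes was not tested. In RNA from whole cultures, fewer cells of a type and less RNA per cell cannot be told apart.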

How the data were processed

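RNA from 6 samples of SH-SY5Y cells was hybridised to Illumina bead arrays, per the labels' protocols as biotinylated cRNA. The authors deposited 1 intensity per probe and array, not normalized between arrays as far as the values show, and with it a detection p-value, per the file headers. They also deposited processed intensities, which the values show to be quantile normalized on the linear scale, with a median of 111.5 on every array; these served as an alternative. The scanner software is not given in the sources used here.

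Intensities were corrected with limma 3.58.1 in R 4.3.3 (normexp with background inferred from the detection p-values, offset 16) and quantile normalized on the log2 scale. Of 22184 probes, 19715 carried 1 gene symbol, 0 several and 2469 none in the platform annotation, and 19695 matched a current gene by ID. Each probe was its own feature. Probes with a detection p-value under 0.05 on all 3 arrays of a group were kept (12969). The difference, atrazine minus DMSO, was tested two-sided with lmFit and eBayes, and p-values were adjusted by Benjamini-Hochberg over the kept probes and a threshold of 0.05. An exact test of 3 against 3 arrays cannot go below 0.1. The number of arrays limits the precision.

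A probe above background on no array of 1 group has only a bound, given as at least N-fold: the mean of the bright group over a mean for the dim group in which each array contributes the probe's value or, if that is lower, the lowest value of any detected probe. No fold is given where that ratio is under 1. The procedure was tested on simulated data.

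The members, the pathway and marker lists and the rule for named genes were chosen with earlier results of these data known. The rule names every member, the up to 3 probes of smallest p in each pathway list, and the 3 probes nearest to the member that is above background on all arrays and has the largest difference. Lists were described by counts and medians, without a test. Alternatives tried were an offset of 50, no background correction, 4 other scalings (15 probes of housekeeping genes were used in 1 of them), the authors' processed intensities, other detection filters, 1 probe per gene, a variance trend, weights per array, a block for the replicate number and leaving out each array.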

Additional observations from a re-analysis of the deposited data

How the results depend on the processing

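For the 9 tested probes, 157 of 166 values under alternative settings kept both direction and side of the threshold. Of the rest, 5 kept the direction but lost the call and 4 changed direction. The other detection filters, 1 probe per gene, the variance trend and the replicate block reuse the same normalized values and group means. In those settings the direction could not change. The changes of direction were FOS at 1.06 (median of probes above background on all arrays) and 0.90 (housekeeping scaling), and FOSL2 at -0.079 and IER2 at -0.58 with no scaling. Calls were lost for JUN (-0.30, median of probes above background on all arrays), JUND (0.10, no scaling), FOS (-0.04) and IER2 (0.14) with the median of every probe, a setting chosen after seeing the data, and DUSP1 under the replicate block. The scalings by a constant shift all probes alike, so these changes are not separate evidence. Requiring a detection p-value under 0.01 on all 6 arrays left 6178 probes, of which 3985 were called (2103 higher, 1882 lower). It left 4 member probes, those of FOSL2, JUND, DUSP1 and SPRY2, all called. Fewer probes were tested there. The replicate numbers did not pair the arrays: deviations of same-numbered arrays from their group means correlated at -0.17, -0.44 and -0.29, and no array correlated best with its own number. With the replicate block 7598 probes and 8 of 9 member probes were called, DUSP1 not (adjusted p = 0.0545). Leaving out 1 array gave 7507 to 9484 calls over all probes and 9 among the members. Signal near background limits EGR1, FOS, JUN, IER2 and, though above background on every array, DUSP6 in atrazine.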
